A study of Mus musculus with 4 samples.

Results

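The 44 genes described here encode the Polycomb repressive complexes and the enzymes that add or remove methyl groups at lysine 4 and lysine 27 of histone H3, in 129/Ola mouse embryonic stem cells. They were chosen by gene symbol, and all 44 were found among the 23309 genes listed in the deposited table of RNA levels. The compared cells carried a Chd2 mutation on both alleles (Chd2 mut/mut, titled Chd2KO in the sample names) or were wild type. Chd2 encodes an ATP-dependent chromatin remodeler. Both genotypes were passage 10-20 cells cultured on gelatin with serum and leukemia inhibitory factor, and total RNA of 2 libraries per genotype, marked as lot 1 and lot 2, was sequenced. The labels do not say what the mutation is, how many clones were used, how the lines are related, or whether the lots were separate cultures. The table gives 1 value per gene and genotype, in FPKM (sequenced fragments scaled for the length of the transcript and the mapped total). No value below therefore has a replicate error, sequencing depth is unknown, and each statement of significance is that of the authors' deposited table, whose q-value is a p-value adjusted over genes and calls a gene below 0.05.

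Polycomb repressive complex 2 (PRC2) methylates lysine 27 of histone H3, a mark of repressed chromatin that lies over many developmental regulators in embryonic stem cells. Polycomb repressive complex 1 (PRC1) ubiquitinates histone H2A, and some of its forms bind the lysine 27 mark. SET1 and MLL complexes, which share a core of WDR5, RBBP5, ASH2L and DPY30, methylate lysine 4 at CpG-rich promoters of active genes, and in pluripotent cells both marks can lie on the same promoter, a state called bivalent.

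Markers of embryonic stem cells were abundant in both genotypes, and Chd2 was reduced but still detected. Chd2 was at 5.69 FPKM in the mutant, against 10.2 FPKM in wild type, which is 55.9% of the wild-type level and is called lower in the authors' deposited table (q = 0.0103). The 8 embryonic stem cell markers checked ran between 97.6 and 4380 FPKM in the mutant and between 87.7 and 3844 FPKM in wild type. On the log2(FPKM + 1) scale described below, their median difference was 0.15, with 6 higher in the mutant and 2 lower. The largest were Nanog, at 150 FPKM in the mutant and 114 FPKM in wild type, and Sox2, at 222 and 178 FPKM. None of the 8 was called in the authors' deposited table. The 5 primitive endoderm markers summed to 1.41 FPKM in the mutant and 1.84 FPKM in wild type, and the 4 trophoblast markers to 2.72 FPKM in the mutant and 3.19 FPKM in wild type. Of 7 fibroblast markers, Col3a1, Postn and Lum were listed at 0 in both genotypes, and Thy1 was at 11.5 FPKM in the mutant and 14.2 FPKM in wild type. The 3 blood markers matched by symbol summed to 1.01 FPKM in the mutant and 0.407 FPKM in wild type, all of it Sfpi1. The 4 neural markers summed to 52.6 FPKM in the mutant and 53.2 FPKM in wild type, most of it Tubb3. Tubb3 was lower in the mutant, at 49.1 FPKM against 50.7 FPKM in wild type. The others were higher in the mutant. Pax6 was at 2.42 FPKM in the mutant and 1.68 FPKM in wild type, and Neurod1 at 0.804 and 0.628 FPKM. Sox1 was at 0.268 FPKM in the mutant and 0.206 FPKM in wild type. None of the 4 was called in the authors' deposited table.

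None of the 44 genes was called in the authors' deposited table, where 0.348% of all genes listed were called. Among genes whose genotypes averaged 1 FPKM or more, as 42 of the members did, 0.697% were called. The lowest q-value of a member was 0.788, for Cbx6, and 33 members shared a q-value of 0.998. A q-value that misses the threshold does not show that the levels were alike. The table gives no unadjusted p-values, and no member had a q of at most 0.2, which 0.704% of all genes listed had. The smallest change called for any gene was a log2 fold change of 0.51 in size, for Pdzd4, or 1.42-fold, and no member reached it. The largest log2 fold change of a member in the authors' deposited table was 0.46, for Phf1.

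Of the 44 genes, 34 were within 10% of their wild-type level in the mutant and 40 were within 20%. Of all genes whose genotypes averaged 1 FPKM or more, 59.1% were within 10% and 84.4% within 20%. The 4 genes beyond 20% were Phf1, Bmi1, Cbx8 and Yaf2, and each had a mean of the genotypes under 2 FPKM, so they were among the least abundant members. All 35 members with a mean of at least 5 FPKM were within 20%. Most genes at those levels also changed little. On the log2(FPKM + 1) scale described below, 11% of the 7500 genes at those levels differed by 0.25 or more in size, against 0 of the 35 members.

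Differences were also taken on the log2(FPKM + 1) scale, mutant minus wild type, for genes whose genotypes averaged 1 FPKM or more. The added 1 shrinks the change of scarce genes. Of the 44 members 42 passed, all except Cbx8 and Phc3. Their median difference was 0.02, with 23 above 0 and 19 below 0, against a median of -0.0012 over all 10766 genes that passed. A difference of at least 0.25, or 1.19-fold, was found in 1 of the 42 members, Phf1, against 6.92% of all genes. A difference of -0.25 or lower was found in 0 of the 42, against 6.83% of all genes. The median size of the difference, regardless of sign, was 0.07 over the members and 0.10 over all genes. Members with a mean of at least 50 FPKM, 13 in number, had a median size of 0.08, against 0.10 over the 1949 genes at those levels. The 13 members from 5 to 20 FPKM had a median size of 0.104, against 0.100 over the 3687 genes at those levels. From 20 to 50 FPKM the median size was 0.036 over 9 members, against 0.082 over 1864 genes. Below 5 FPKM it was 0.100 over 9 members, with Cbx8 and Phc3 included, against 0.122 over the 3266 genes that passed.

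**Figure D1:**
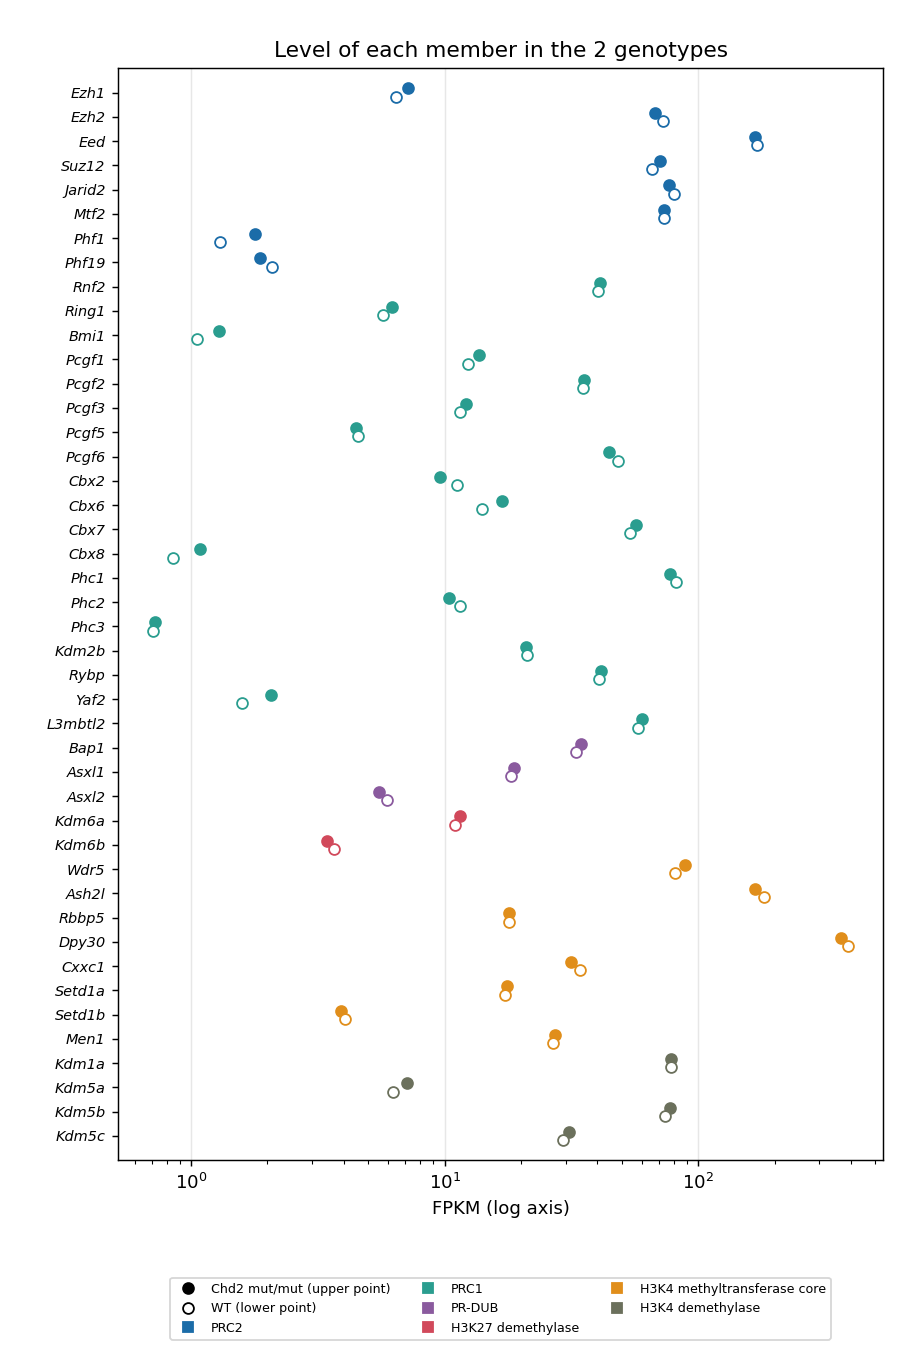
FPKM of each of the 44 genes on a log axis, with filled points (upper) for Chd2 mut/mut and open points (lower) for wild type, 1 deposited value per genotype and no error bars, coloured by complex. Levels span 0.723 to 365 FPKM in the mutant and 0.707 to 390 FPKM in wild type, while the points of a gene lie close together.

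**Figure D2:**
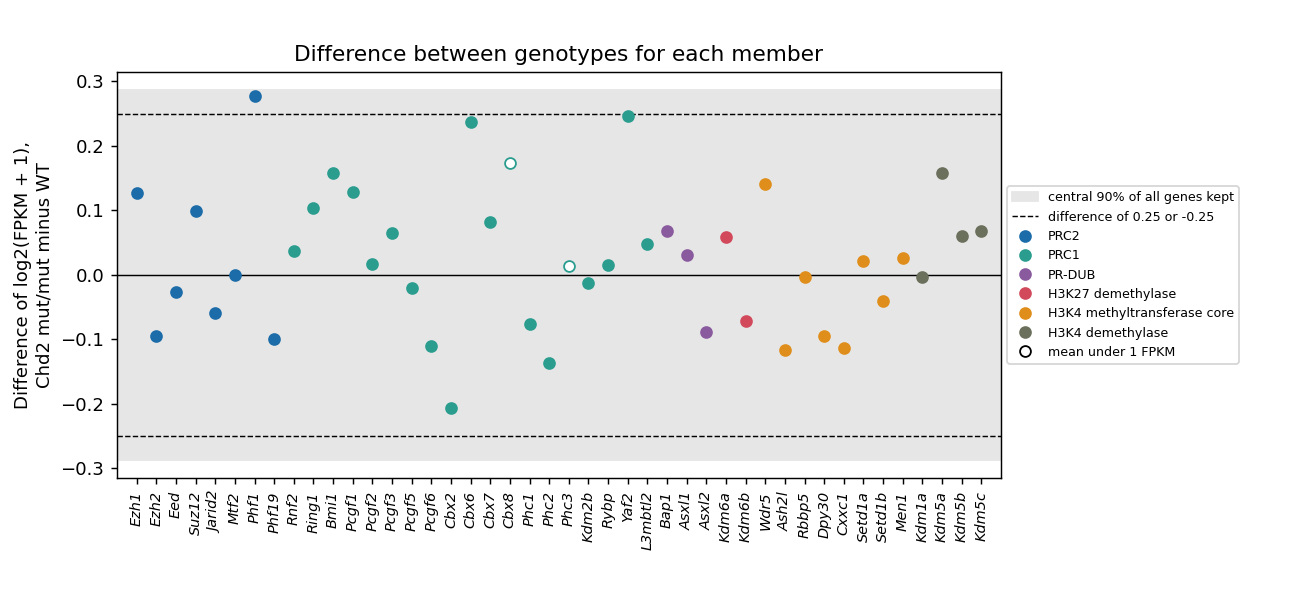
Difference of log2(FPKM + 1), Chd2 mut/mut minus wild type, for each member in order of complex. The grey band spans the central 90% of the 10766 genes that passed the filter, from -0.29 to 0.29, and holds all 44 members; dashed lines mark 0.25 and -0.25, and open points are the 2 members with a mean under 1 FPKM.

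The subunits of the PRC2 core were abundant in both genotypes, and most of the mRNA for the catalytic subunit came from Ezh2 and little from its paralog Ezh1. Ezh2, which encodes the main methyltransferase of lysine 27 in dividing cells, was at 67.8 FPKM in the mutant and 72.5 FPKM in wild type. Ezh1 was at 7.14 FPKM in the mutant and 6.45 FPKM in wild type. Ezh2 thus made up 90.5% of the summed FPKM of the pair in the mutant and 91.8% in wild type. Eed, whose product reads the lysine 27 mark and stimulates the enzyme, was the most abundant of the 8 PRC2 genes among the 44, at 167 FPKM in the mutant and 171 FPKM in wild type. Of PRC2 genes outside the 44, named after their values were seen, Rbbp7 was above Eed, at 177 FPKM in the mutant and 194 FPKM in wild type. Rbbp4 was below Eed, at 120 FPKM in the mutant and 125 FPKM in wild type. Suz12, the scaffold of the complex, was at 70.7 FPKM in the mutant and 65.9 FPKM in wild type. The ratio of Suz12 to Ezh2 was 1.04 in the mutant and 0.909 in wild type, so these mRNAs were near parity, while Eed exceeded Ezh2 by 2.47-fold in the mutant and 2.35-fold in wild type.

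Accessory subunits of PRC2 help to bring the complex to chromatin or modulate it, and of the 4 among the 44 genes Jarid2 and Mtf2 were the abundant ones. Outside the 44, the gene listed as E130012A19Rik, which encodes the PRC2-associated protein EPOP and is named after its values were seen, was higher still, at 335 FPKM in the mutant and 320 FPKM in wild type. Jarid2 was at 76.8 FPKM in the mutant and 80.1 FPKM in wild type. Mtf2, a Polycomb-like protein that binds CpG-rich DNA, was at 73.08 FPKM in the mutant and 73.1 FPKM in wild type, among the smallest differences of the 44 genes. Its paralogs were scarce: Phf19 was at 1.88 FPKM in the mutant and 2.08 FPKM in wild type. Phf1 was at 1.79 FPKM in the mutant and 1.30 FPKM in wild type, a difference of 0.28 on the log2(FPKM + 1) scale that is not called in the authors' deposited table (q = 0.854). Mtf2 therefore held 95.2% of the Polycomb-like FPKM in the mutant and 95.6% in wild type. Over the 8 PRC2 genes the median difference was -0.01, with 3 above 0 and 5 below 0.

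The ubiquitin ligases at the heart of PRC1 were also unequal. Rnf2, which encodes RING1B, was at 41.2 FPKM in the mutant and 40.1 FPKM in wild type, while its paralog Ring1 was at 6.20 FPKM in the mutant and 5.70 FPKM in wild type. Rnf2 accounted for 86.9% of the pair in the mutant and 87.6% in wild type.

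The PCGF subunit defines which form of PRC1 a RING1 protein joins, and the genes of the family spanned a wide range of levels. Pcgf6, whose form of PRC1 also contains L3MBTL2, MGA and E2F6 and represses germline genes in embryonic stem cells, led with 44.6 FPKM in the mutant and 48.2 FPKM in wild type. Pcgf2, found in the canonical form that binds the lysine 27 mark, followed with 35.4 FPKM in the mutant and 34.98 FPKM in wild type. Pcgf1, the partner of KDM2B, was at 13.6 FPKM in the mutant and 12.4 FPKM in wild type, and Pcgf3 at 12.1 FPKM in the mutant and 11.5 FPKM in wild type. Pcgf5 was at 4.47 FPKM in the mutant and 4.55 FPKM in wild type. Bmi1, the other canonical PCGF gene and a regulator of self-renewal in adult stem cells, was the least abundant at 1.29 FPKM in the mutant and 1.05 FPKM in wild type. The share of Pcgf6 in the family was 40.0% in the mutant and 42.8% in wild type, the largest shift among 31 shares of 11 paralog sets. Under quantile normalization the largest was that of Cbx2, at -2.96 percentage points, against -2.16 for Pcgf6. Pcgf2 took 31.8% in the mutant and 31.04% in wild type.

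CBX proteins carry the chromodomain through which canonical PRC1 binds the lysine 27 mark, and Cbx7 was the prevalent member in both genotypes. Cbx7 was at 57.0 FPKM in the mutant and 53.8 FPKM in wild type, and made up 67.5% of the 4 CBX genes in the mutant and 67.3% in wild type. Cbx6 was at 16.8 FPKM in the mutant and 14.1 FPKM in wild type, and Cbx2 at 9.58 FPKM in the mutant and 11.2 FPKM in wild type. The differences had opposite signs, 0.24 for Cbx6 and -0.21 for Cbx2, and neither was called in the authors' deposited table (q = 0.788 and 0.889). Cbx8 was at 1.08 FPKM in the mutant and 0.848 FPKM in wild type. In the GRCm38 annotation Cbx2 and Cbx8 stand next to each other on chromosome 11 with no protein-coding gene between them, and Cbx6 and Cbx7 are separated by 1 protein-coding gene on chromosome 15. The levels of the chromosome 11 pair were far from equal: Cbx2 exceeded Cbx8 by 8.85-fold in the mutant and 13.2-fold in wild type.

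PHC proteins polymerise and cluster canonical PRC1. Phc1 was at 77.2 FPKM in the mutant and 81.5 FPKM in wild type and held 87.4% of the PHC total in the mutant and 86.9% in wild type. Phc2 was at 10.4 FPKM in the mutant and 11.5 FPKM in wild type, and Phc3 at 0.723 FPKM in the mutant and 0.707 FPKM in wild type. Variant PRC1 forms without the CBX proteins described above. Of its subunits, Kdm2b, whose product brings the complex to unmethylated CpG-rich DNA, was at 20.9 FPKM in the mutant and 21.1 FPKM in wild type. Rybp, which stimulates the ligase, was at 41.2 FPKM in the mutant and 40.8 FPKM in wild type, and L3mbtl2 at 60.1 FPKM in the mutant and 58.1 FPKM in wild type. Yaf2, the paralog of Rybp, was at 2.06 FPKM in the mutant and 1.58 FPKM in wild type, a difference of 0.25 just inside the limit of 0.25 used above. Over the 17 PRC1 genes that passed the filter, of 19, the median difference was 0.04, with 11 above 0 and 6 below 0.

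The deubiquitinase Bap1 and its partners remove ubiquitin from histone H2A and so oppose PRC1. Bap1 was at 34.6 FPKM in the mutant and 32.9 FPKM in wild type. Asxl1 was at 18.7 FPKM in the mutant and 18.3 FPKM in wild type, and Asxl2 at 5.50 FPKM in the mutant and 5.92 FPKM in wild type. Asxl1 supplied 77.3% of the pair in the mutant and 75.6% in wild type. The median difference of these 3 genes was 0.03.

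The demethylases of lysine 27 were expressed at modest levels. Kdm6a, an X-linked gene that encodes UTX, was at 11.5 FPKM in the mutant and 10.98 FPKM in wild type. Kdm6b, which encodes JMJD3, was at 3.44 FPKM in the mutant and 3.67 FPKM in wild type. The Y-linked homologue of Kdm6a, Uty, was at 4.96 FPKM in the mutant and 5.14 FPKM in wild type, so Kdm6a exceeded it by 2.31-fold in the mutant and 2.14-fold in wild type. Reads that fit both homologues cannot be assigned with certainty, and the authors' treatment of them is not stated. Of other Y-linked genes, Usp9y was called lower in the authors' deposited table, at 0.368 FPKM in the mutant and 1.01 FPKM in wild type. Ddx3y, at 11.3 FPKM in the mutant and 14.5 FPKM in wild type, and Eif2s3y, at 35.5 FPKM in the mutant and 32.0 FPKM in wild type, were not called, and neither was Uty. Kdm6a held 76.9% of the summed level with Kdm6b in the mutant and 74.96% in wild type.

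The core shared by the methyltransferases of lysine 4 held the most abundant members of all. Dpy30, a small subunit that stimulates methylation, was at 365 FPKM in the mutant and 390 FPKM in wild type. Ash2l was at 168 FPKM in the mutant and 182 FPKM in wild type, and Wdr5 at 89.01 FPKM in the mutant and 80.6 FPKM in wild type. Rbbp5, the remaining core gene, was at 17.91 FPKM in the mutant and 17.95 FPKM in wild type. The mRNAs of the core were therefore not in equal amounts: Dpy30 exceeded Rbbp5 by 20.4-fold in the mutant and 21.7-fold in wild type, and Ash2l exceeded it by 9.37-fold in the mutant and 10.1-fold in wild type. Wdr5, which also serves other complexes, was the 1 core gene above 0 (Rbbp5 also was under quantile normalization), with a difference of 0.14 on the log2(FPKM + 1) scale, not called in the authors' deposited table (q = 0.970).

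Subunits that set 1 methyltransferase complex apart from another lay below Dpy30, Ash2l and Wdr5 in level. Cxxc1, which binds unmethylated CpG for the SET1 complexes, was at 31.5 FPKM in the mutant and 34.2 FPKM in wild type. The catalytic Setd1a was at 17.6 FPKM in the mutant and 17.3 FPKM in wild type, and its paralog Setd1b at 3.90 FPKM in the mutant and 4.04 FPKM in wild type. Men1, which encodes menin of the MLL complexes, was at 27.1 FPKM in the mutant and 26.6 FPKM in wild type. Over these 8 methyltransferase genes the median difference was -0.02, with 3 above 0 and 5 below 0.

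Of the 4 demethylase genes of lysine 4, 3 had a difference above 0 and the median was 0.06 (0.11 under quantile normalization), and none was called in the authors' deposited table. The 8 further genes listed beside them that passed the filter had a median of -0.06, with 2 above 0 and 6 below 0. Not all of these act on lysine 4: the list includes Kdm2a and Jmjd6, both below 0. None was called either, and the median size of the difference over all genes that passed was 0.10. Kdm1a, which encodes LSD1, was at 78.1 FPKM in the mutant and 78.3 FPKM in wild type. Kdm5b, the main gene of its family here, was at 77.3 FPKM in the mutant and 74.1 FPKM in wild type, followed by the X-linked Kdm5c at 30.8 FPKM in the mutant and 29.3 FPKM in wild type. Kdm5a was at 7.09 FPKM in the mutant and 6.25 FPKM in wild type, the largest difference of the 4 at 0.16. Kdm5b made up 67.1% of the 3 genes in the mutant and 67.6% in wild type. The Y-linked homologue of Kdm5c, Kdm5d, was at 0.00545 FPKM in the mutant and 0.00492 FPKM in wild type. That is far below Uty although both are on the Y chromosome. Here too, reads that fit both homologues cannot be assigned with certainty, so the low value does not show that Kdm5d was silent.

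In each of the 11 paralog sets the same gene led in both genotypes, and the order of the genes within a set was the same in all 11. The order over all 44 genes was also close: 28 had the same rank in both genotypes, and the largest shift was 3 places. Levels spanned 0.707 to 390 FPKM in wild type, far more than the genotypes differed for any member. A close order, over all members or within sets, therefore says little, and other genes were not ranked for comparison. The 5 most abundant members of each genotype, which were the same except for Kdm1a in the mutant and Phc1 in wild type, held 45.4% of the summed FPKM of the 44 genes in the mutant and 46.7% in wild type.

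**Figure D3:**
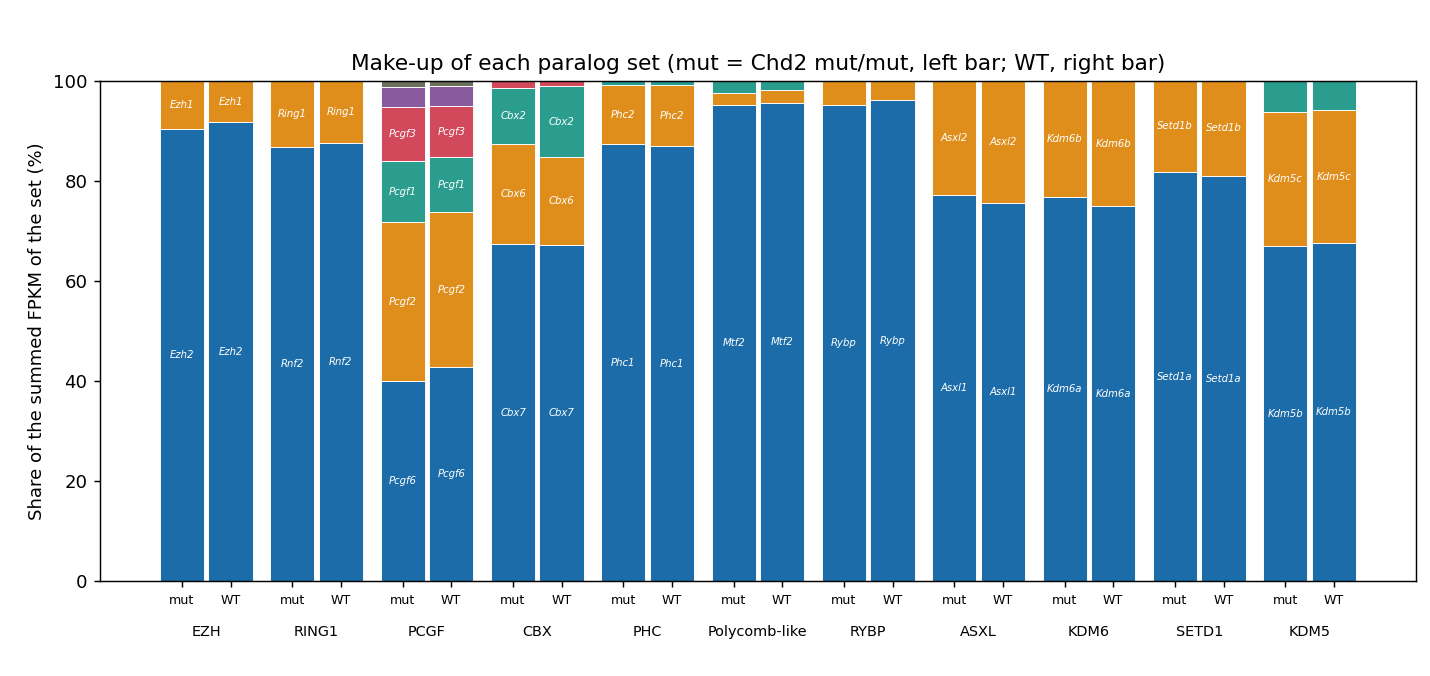
Share of each gene in the summed FPKM of its paralog set, in percent, with the left bar of each pair for Chd2 mut/mut and the right bar for wild type; segments are stacked in the wild-type order and segments under 8% carry no name. The largest segment belongs to the same gene in both bars of every set, and no share differs between the bars by more than 2.78 percentage points.

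The promoters of the members are shown because several of the encoded proteins act at CpG-rich promoters, and because they are a feature that the choice of members did not use. RefSeq sequences on GRCm38.p6 list a single start for 28 of the 44 genes, and the 250 bases before that start were counted. The members had a median of 18 CpG dinucleotides, with a range of 5 to 43, against 17 in the 6356 promoters of genes averaging 1 FPKM or more (the 28 include Cbx8 and Phc3, which did not) and 2 in the 3753 promoters of genes listed at 0 in both genotypes. The members were thus close to expressed genes in general. The catalytic PRC1 pair and Pcgf2, which had the fewest CpG of the 28, are given 5′ to 3′ on the minus strand, on which all 3 genes lie, with each CpG in capitals. Rnf2 (chr1:151500992-151501241) holds 20 CpG, Ring1 (chr17:34024681-34024930) holds 30, and Pcgf2 (chr11:97699649-97699898) holds 5.
Rnf2: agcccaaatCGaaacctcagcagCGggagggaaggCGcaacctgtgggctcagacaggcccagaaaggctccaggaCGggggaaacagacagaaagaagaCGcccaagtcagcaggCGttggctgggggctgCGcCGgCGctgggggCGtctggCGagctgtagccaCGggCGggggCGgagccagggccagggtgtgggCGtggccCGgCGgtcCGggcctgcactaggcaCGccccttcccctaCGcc
Ring1: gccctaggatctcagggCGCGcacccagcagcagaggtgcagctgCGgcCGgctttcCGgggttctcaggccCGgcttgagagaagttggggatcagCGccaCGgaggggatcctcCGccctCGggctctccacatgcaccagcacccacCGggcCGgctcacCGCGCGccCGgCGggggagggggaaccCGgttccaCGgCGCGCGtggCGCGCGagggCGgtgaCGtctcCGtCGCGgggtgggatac
Pcgf2: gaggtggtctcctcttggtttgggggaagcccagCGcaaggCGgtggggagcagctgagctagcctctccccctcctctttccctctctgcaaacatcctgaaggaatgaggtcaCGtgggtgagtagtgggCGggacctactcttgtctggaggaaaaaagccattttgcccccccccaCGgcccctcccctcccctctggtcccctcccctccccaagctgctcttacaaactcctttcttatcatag
Levels did not follow the count within these 3 genes: Ring1, with the most CpG, was at 6.20 FPKM in the mutant and 5.70 FPKM in wild type, while Pcgf2, with the fewest, was at 35.4 FPKM in the mutant and 34.98 FPKM in wild type. The 44 genes lie on 17 chromosomes, with at most 6 on 1 chromosome.

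Genes of the same pathways outside the 44 were examined as a list of 71 further subunits and enzymes, and 1 of them was called in the authors' deposited table, against 0.348% of all genes. That gene was Sfmbt2, which encodes a Polycomb group protein with MBT repeats and is imprinted in the mouse. Sfmbt2 was at 6.26 FPKM in the mutant and 11.4 FPKM in wild type, 1.82-fold lower, with a q-value of 0.0103 in the authors' deposited table. Of the 57 further genes that passed the filter, 2 had a difference of at least 0.25, against 6.92% of all genes. A difference of -0.25 or lower was found in 1, Sfmbt2, against 6.83% of all genes. With a pseudocount of 0.1 these counts were 8 and 1, against 10.3% and 8.94% of all genes. The median difference of the 57 was 0.03, with 32 above 0 and 25 below 0.

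No other gene of this list was called in the authors' deposited table, and the 8 largest differences among those that passed the filter were in partners of PRC1, of the deubiquitinase and of the lysine 4 enzymes. Bcor, a partner of PCGF1, was at 6.01 FPKM in the mutant and 4.65 FPKM in wild type (q = 0.496 in the authors' deposited table). E2f6, the DNA-binding partner of PCGF6, was at 12.4 FPKM in the mutant and 10.3 FPKM in wild type, and Fbrsl1 at 6.11 FPKM in the mutant and 5.14 FPKM in wild type. Foxk2, which brings BAP1 to DNA, was at 12.3 FPKM in the mutant and 10.2 FPKM in wild type. Phf21a, a subunit of the LSD1 complex that reads unmethylated lysine 4, was at 3.19 FPKM in the mutant and 2.47 FPKM in wild type. Rcor2, the CoREST protein typical of embryonic stem cells, was at 41.7 FPKM in the mutant and 48.8 FPKM in wild type, the only 1 of the 8 that was lower in the mutant. The methyltransferase gene listed as Mll3 was at 2.71 FPKM in the mutant and 2.13 FPKM in wild type, and Hcfc2 at 1.28 FPKM in the mutant and 0.936 FPKM in wild type.

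**Figure D4:**
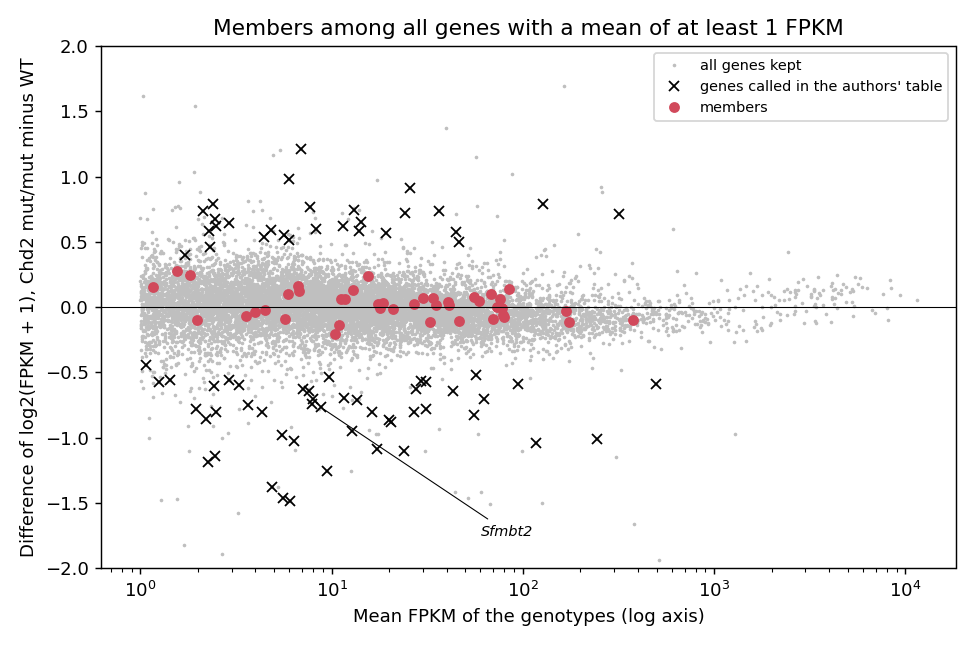
Difference of log2(FPKM + 1), Chd2 mut/mut minus wild type, against the mean FPKM of the genotypes on a log axis for the 10766 genes that passed the filter (grey), the genes called in the authors' deposited table (crosses) and the 42 members kept (red). The members lie between -0.21 and 0.28, inside the cloud of uncalled genes, while Sfmbt2 lies at -0.77; 57 genes beyond a difference of 2 in size are outside the plotted range.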

How the data were processed

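Libraries of total RNA were made with the NEBNext Ultra kit, per the labels' protocols. The tools named are TopHat2 2.1.0, Cufflinks and bcl2fastq 2.17.1.14, and the build is mm9, per the submitters' processing notes; no source used here gives annotation or strand handling. The authors deposited FPKM as 1 value per gene and genotype, so the libraries could not be compared. A log2 fold change (mutant over wild type, without a pseudocount) and a q-value per gene are deposited beside it, per the file headers, with no test named. The planned fit with limma on separate libraries could not be run on 1 value per genotype.

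Differences of log2(FPKM + 1), medians, counts and paralog shares were computed with Python 3.11.15 and pandas 2.3.3. The code that counts differences was checked on simulated data with far less spread than these data. That check bears on the code alone, not on how the counts behave here. Alternatives were a pseudocount of 0.1, no filter or a mean of 5 FPKM or more, quantile normalization, the median set to 0, and a size of 0.15. Members and lists were chosen with earlier results of these data known. Named further genes are those called plus the 8 largest differences. Chromosomes and promoters came from RefSeq GRCm38.p6, matched by symbol for all 44 genes (chromosome) and for 28 (promoter); no coordinate was converted from mm9.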

Additional observations from a re-analysis of the deposited data

How the results depend on the processing

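The count of called members was 0 among genes averaging 1 FPKM or more, of which 0.697% were called. It was also 0 at a q of at most 0.1 or 0.2, which 0.502% and 0.704% of all genes listed had. With shares this low, a count of 0 among so few genes says little. With a pseudocount of 0.1, 4 members rather than 1 had a difference of at least 0.25 (against 10.3% of all genes). At a mean of 5 FPKM or more, 0 of 35 members had one (against 4.92% of the 7500 genes at those levels). At a size of 0.15, chosen after seeing the data, 5 were higher and 1 lower (against 16.5% and 16.6%). The median difference of the members lay between 0.02 and 0.05 in the settings fixed at the start. The PRC2 median, -0.01 as deposited, was 0.055 under quantile normalization, and the cause was not tested. The median of the H3K27 demethylases was 0.059 at a mean of 5 FPKM or more, where only Kdm6a was left. Under quantile normalization 5 of the 44 genes (Eed, Mtf2, Phc3, Rbbp5 and Kdm1a) changed sign, and with the median set to 0 only Mtf2 did. Leading paralog shares moved by under 1 percentage point under quantile normalization. No paired analysis was possible because the table gives 1 value per genotype and no value per lot; leaving out a library could not be done for the same reason. With depth unknown and no replicate error, small differences of the scarce genes cannot be told from sampling noise.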
